A study of Mus musculus with 4 samples.

Results

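The Trem and Siglec receptors of cultured mouse macrophages were examined as 9 genes, chosen by symbol from the 34745 genes of the expression table. They were the receptors Trem1, Trem2, Trem3 and Treml4, the adaptor Tyrobp, and the sialic acid-binding lectins Siglec1, Siglece, Cd33 and Siglecg. Of these, 8 had enough counts to be among the 12418 genes tested. Trem3 had too few. The study sequenced total RNA from 4 libraries of bone marrow-derived macrophages, 2 labelled WT (WT1 and WT2) and 2 labelled KO (KO1 and KO2). The WT libraries came from G3bp1f/f mice and the KO libraries from G3bp1mac-/- mice, in which floxed G3bp1 was deleted with Lyz2-Cre, a driver that is active in the myeloid lineage and not in macrophages alone. G3bp1 encodes the scaffold protein of stress granules, and the comparison asked which genes differ between macrophages of the 2 genotypes. All cells were grown in DMEM with fetal bovine serum and penicillin/streptomycin, and the labels name no stimulus and no age of the mice.

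Trem receptors are immunoglobulin-domain proteins of myeloid cells with short cytoplasmic tails. Trem1, Trem2 and Trem3 signal through DAP12, the protein of Tyrobp, whose immunoreceptor tyrosine-based activation motif (ITAM) recruits the kinase Syk after phosphorylation. Most Siglecs of the CD33-related group, such as Siglec-E and Siglec-G, bind sialic acid on glycoproteins and glycolipids and carry immunoreceptor tyrosine-based inhibitory motifs (ITIMs) that recruit the phosphatases SHP-1 and SHP-2, whereas Siglec-1, the macrophage receptor sialoadhesin, lacks such a motif. Trem2 on macrophages binds lipids and lipoproteins and takes part in the uptake of dying cells.

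The coding sequences of the activating and inhibitory motifs are shown because they separate the roles of the members. They were read from GENCODE transcripts of build GRCm38 (Tyrobp-201, Siglece-201 and Siglecg-201), 5′ to 3′ on the coding strand, with the tyrosine codons in capitals. The Tyrobp stretch is split by an intron and lies within chr7:30415670-30417382 on the plus strand, the Siglece stretch is at chr7:43651585-43651602 on the minus strand, and the Siglecg stretch is at chr7:43417979-43417996 on the plus strand.
Tyrobp ITAM: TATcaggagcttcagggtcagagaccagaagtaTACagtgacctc
Siglece ITIM: atacatTATgcgaccctc
Siglecg ITIM: ctccacTATgctgctctc
The search looked for tyrosine codons at the spacing of these motifs with isoleucine, leucine or valine codons after them, and in the last 120 codons it also matched 1 stretch of Treml4, 1 of Tyrobp that overlaps its ITAM and 2 others of Siglecg. It found no ITIM codon pattern at that end of the Cd33 transcript, and no ITAM pattern in any of the 8 other members.

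In the table, the 4 Trem genes lay in a cluster on chromosome 17, all on the plus strand. They were Trem1 (ENSMUSG00000042265, chr17:48232768-48246924), Trem3 (ENSMUSG00000041754, chr17:48247777-48258841), Treml4 (ENSMUSG00000051682, chr17:48264295-48275360) and Trem2 (ENSMUSG00000023992, chr17:48346401-48354147), which together span 121 kb. Cd33 (ENSMUSG00000004609, chr7:43524216-43544428, minus strand), Siglece (ENSMUSG00000030474, chr7:43651070-43660161, minus strand) and Siglecg (ENSMUSG00000030468, chr7:43408204-43418358, plus strand) lay within 252 kb on chromosome 7. Tyrobp (ENSMUSG00000030579, chr7:30413788-30417577, plus strand) was elsewhere on that chromosome, and Siglec1 (ENSMUSG00000027322, chr2:131069220-131086765, minus strand) was on chromosome 2. No other gene of the table overlapped any member.

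The 250 bases before the start are printed for Trem1 and Siglece, whose counts differed most between the replicate numbers, and for Trem2, the most abundant receptor. They are RefSeq sequence of build GRCm38.p6, 5′ to 3′ on the strand of the gene, at chr17:48232489-48232738 for Trem1 (plus strand), chr7:43660162-43660411 for Siglece (minus strand) and chr17:48346151-48346400 for Trem2 (plus strand). Capitals mark matches on either strand to the letters GAGGAAG (named for PU.1), TTGCNNAA (C/EBP) and TGANTCA (AP-1), and to the interferon-stimulated response element. The searched patterns could overlap each other.
Trem1 promoter: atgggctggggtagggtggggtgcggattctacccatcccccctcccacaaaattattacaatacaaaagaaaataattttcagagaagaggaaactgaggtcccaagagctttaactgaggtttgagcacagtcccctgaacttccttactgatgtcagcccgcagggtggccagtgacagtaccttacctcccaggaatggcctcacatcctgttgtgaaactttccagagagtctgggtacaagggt
Siglece promoter: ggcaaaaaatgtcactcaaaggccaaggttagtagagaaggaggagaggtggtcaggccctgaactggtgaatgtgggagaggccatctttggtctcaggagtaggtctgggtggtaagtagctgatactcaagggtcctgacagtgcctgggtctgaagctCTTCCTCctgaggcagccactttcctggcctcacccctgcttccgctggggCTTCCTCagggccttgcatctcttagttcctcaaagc
Trem2 promoter: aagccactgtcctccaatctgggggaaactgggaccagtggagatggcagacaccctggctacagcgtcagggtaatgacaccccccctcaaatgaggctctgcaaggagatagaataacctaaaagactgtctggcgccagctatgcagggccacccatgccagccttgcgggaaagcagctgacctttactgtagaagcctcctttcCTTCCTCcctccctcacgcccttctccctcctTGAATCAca
The Siglece window held 2 matches to GAGGAAG, the Trem2 window held 1 match to GAGGAAG and 1 to TGANTCA, and the Trem1 window held none. Of 32851 promoter windows of this length, 10.6% held GAGGAAG, 9.56% TTGCNNAA, 6.75% TGANTCA and 2.98% the interferon-stimulated response element. Such matches describe letters and do not show binding. The promoter table held 6 of the 9 members.

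The libraries held 16724241 to 19747909 counts, so that 3 counts, the limit that a count of 0 allows, stood for 0.152 to 0.188 CPM (counts scaled to library size). These intervals and limits cover counting error only. Macrophage genes were high in all libraries, with a mean of 15140 FPKM (fragments scaled to gene length and library size) for Lyz2, lysozyme, and 1497 FPKM for Cd68, a lysosomal glycoprotein. The targeted gene G3bp1 had 1691 and 2875 counts in WT1 and WT2 and 1307 and 2296 in KO1 and KO2. Its log2 fold change was −0.61 (SE 0.40, adjusted p = 0.904 in edgeR), with −0.57 within number 1 and −0.63 within number 2. KO2 lay above WT1, so the transcript counts of the targeted gene did not separate the libraries labelled KO from those labelled WT. By its own assays of mRNA and protein in bone marrow-derived macrophages, the paper reports an efficient loss of G3BP1 in the KO mice. The libraries separated more by the number in their names than by genotype, with 57.4% of the variance on the first principal component, which split 1 from 2, and 34.3% on the second, which split WT from KO. The labels do not say what the number stands for or whether the samples came from separate mice, so all p-values measure only the spread between these samples.

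Tyrobp and Trem2 were by far the most abundant of the 9 genes in every library. Tyrobp reached 2472 and 1537 FPKM in WT1 and WT2 and 1511 and 1670 FPKM in KO1 and KO2, rank 25 of all genes by mean FPKM. Trem2 reached 310 and 200.02 FPKM in the WT libraries and 230 and 212 FPKM in the KO libraries, rank 193. As FPKM the adaptor stood 7.98, 7.69, 6.56 and 7.87 times above the receptor in WT1, WT2, KO1 and KO2. This ratio rests on the lengths behind the FPKM values, which were 564 bases for Tyrobp and 6119 for Trem2, and by counts Trem2 was the higher gene in every library. In both genes WT1 was the highest library and the other 3 lay close together.

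Cd33 and Siglec1 formed the middle of the range. Cd33, a Siglec of myeloid cells, was at 1.84 and 3.88 FPKM in WT1 and WT2 and 3.03 and 3.99 FPKM in KO1 and KO2. Siglec1 was at 3.64 and 3.12 FPKM in WT1 and WT2 and at 4.04 and 1.85 FPKM in KO1 and KO2. The ranges of these 2 genes overlapped, so their order could not be set. Below them came Siglece, listed from 0 to 1.91 FPKM, Treml4 from 0.068 to 0.418, Trem3 from 0 to 0.297, Trem1 from 0 to 0.181, and Siglecg from 0.045 to 0.123 FPKM. From Cd33 downward each gene overlapped its neighbour in this order, and only the steps from Tyrobp to Trem2 and from Trem2 to Cd33 were larger than the spread over libraries. Within the chromosome 17 cluster Trem2 therefore stood above 200 FPKM in each library, while its neighbours Trem1, Trem3 and Treml4 stayed below 1 FPKM.

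**Figure D1:**
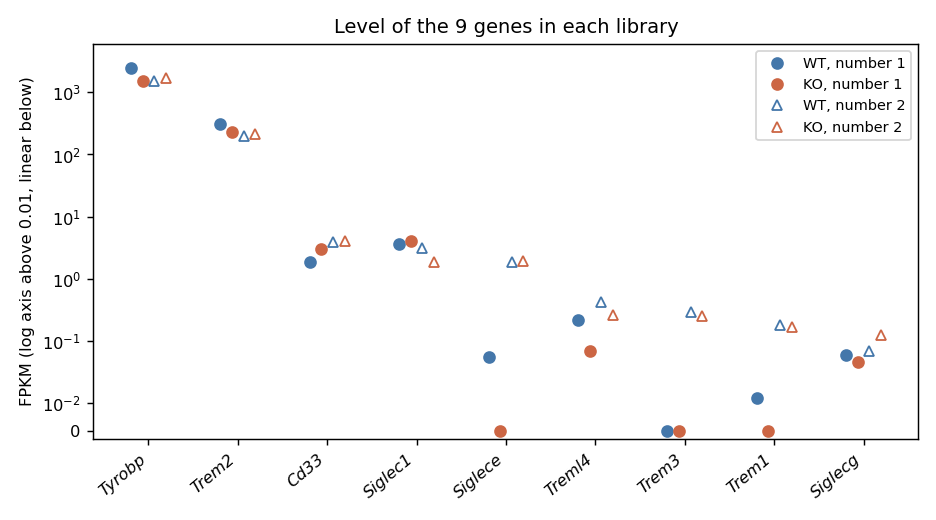
FPKM of the 9 genes in each of the 4 libraries, on an axis that is logarithmic above 0.01 and linear below. Each point is 1 library, with WT in blue, KO in orange, number 1 as filled circles and number 2 as open triangles. Tyrobp and Trem2 lie above 200 FPKM in every library, and Siglece, Trem3 and Trem1 are at or near 0 in the number 1 libraries.

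None of the 9 genes differed between KO and WT beyond the spread between libraries. The edgeR quasi-likelihood test called 0 of the 8 tested members at an adjusted p under 0.05 with a log2 fold change beyond 1 either way, as it did 0% of the 12418 genes. At an unadjusted p under 0.05 there were 0 of 8 members, against 6.63% of all genes (823). Other tests of genotype alone also gave 0 members, among 181 genes called by DESeq2 and 174 by the edgeR exact test. The KO libraries overlapped the WT libraries for all 9 members, while 36.9% of tested genes had both KO libraries on the same side of both WT libraries. With an added term for the replicate number the test called 5.35% of all genes and again 0 of the 8 members. The members' median log2 fold change was −0.32, with 6 of 8 below 0, beside a median of 0.04 over all tested genes. In bulk RNA, fewer cells of a type and less RNA per cell cannot be told apart.

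Trem2, the lipid-sensing receptor, had 32236 and 20717 counts in WT1 and WT2 and 23581 and 25661 in KO1 and KO2. The level was 1643 ± 486 CPM in WT and 1284 ± 27.0 in KO (SD, n = 2 each). WT1 was high at 1986 CPM, and the other 3 libraries lay between 1265 and 1303 CPM. The fitted difference for Trem2 was a log2 fold change of −0.36 (SE 0.27, 95% interval −1.04 to 0.33, adjusted p = 0.933 in edgeR), with −0.65 within number 1 and 0.00 within number 2. Tyrobp, the adaptor, had 23706 and 14678 counts in WT1 and WT2 and 14254 and 18603 in KO1 and KO2. Its level was 1191 ± 382 CPM in WT and 854 ± 127 in KO, again with a high WT1. The log2 fold change of Tyrobp was −0.48 (SE 0.30, 95% interval −1.24 to 0.29, adjusted p = 0.904 in edgeR), with −0.93 within number 1 and 0.04 within number 2. A correction for gene length turned it to 0.03, so no direction was set for Tyrobp.

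Treml4, a receptor that binds dead cells, had 13 and 25 counts in WT1 and WT2 and 4 and 18 in KO1 and KO2. Its log2 fold change was −1.05 (SE 0.79, 95% interval −3.05 to 0.95, adjusted p = 0.932 in edgeR), and it was negative within both numbers (−1.79 and −0.77). With so few counts the interval is wide on both sides of 0. Trem1, an amplifier of inflammatory signals, had 1 and 15 counts in WT1 and WT2 and 0 and 16 in KO1 and KO2. Trem3, its neighbour, had 0 and 5 in WT1 and WT2 and 0 and 5 in KO1 and KO2. Between WT2 and KO2 the log2 ratio of Trem1 was −0.21. In number 1 neither gene was above 3 counts, so a genotype difference was not detectable there.

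Siglec1 had 475 and 405 counts in WT1 and WT2 and 518 and 280 in KO1 and KO2. These were 29.3, 25.4, 27.8 and 14.2 CPM, and only KO2 was low. The log2 fold change of Siglec1 was −0.38 (SE 0.37, 95% interval −1.31 to 0.55, adjusted p = 0.957 in edgeR), with −0.08 within number 1 and −0.84 within number 2. Without KO2 it was 0.02. Cd33 had 338 and 709 counts in WT1 and WT2 and 547 and 850 in KO1 and KO2, or 32.6 ± 16.7 CPM in WT and 36.2 ± 9.77 in KO. Its log2 fold change was 0.15 (SE 0.43, 95% interval −0.94 to 1.24, adjusted p = 0.982 in edgeR), and it was −0.04 after the gene length correction.

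Siglece, the main inhibitory CD33-related Siglec of mouse myeloid cells, had 2 and 67 counts in WT1 and WT2 and 0 and 81 in KO1 and KO2. The number 2 libraries were alike in both genotypes, with a log2 ratio of KO2 to WT2 of −0.03. Siglecg, better known from B cells, had 12 and 14 counts in WT1 and WT2 and 9 and 29 in KO1 and KO2. Its log2 fold change was 0.28 (SE 0.66, 95% interval −1.40 to 1.95, adjusted p = 0.982 in edgeR), with −0.60 within number 1 and 0.72 within number 2. For Siglece and Trem1 the 95% interval of the fold change ran from −4.81 to 4.68 and from −4.31 to 3.75, so these data set no useful limit on a genotype effect in either gene.

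**Figure D2:**
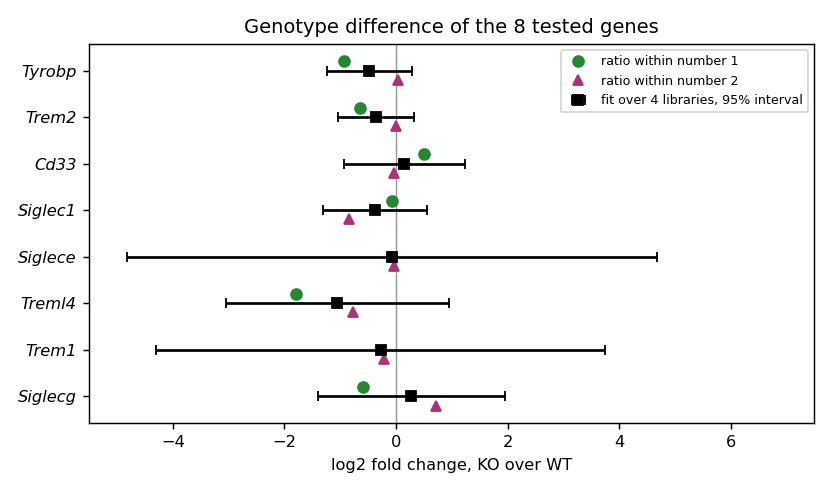
Log2 fold change of KO over WT for the 8 tested genes. Squares with bars give the fit over 4 libraries with its 95% interval, circles the ratio of KO1 to WT1 and triangles the ratio of KO2 to WT2. No circle is drawn for Trem1 and Siglece, which had at most 2 counts in each number 1 library. Every interval crosses 0, and it is narrowest for Trem2 (−1.04 to 0.33).

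Trem1 and Siglece instead separated by replicate number. The term for the number, taken from the fit with genotype and number, was added after the values were seen, and it compares WT2 and KO2 with WT1 and KO1. Siglece summed to 2 counts over the number 1 libraries and 148 over the number 2 libraries, a ratio of 72.4 per library size (95% counting interval 19.7 to 604). Trem1 summed to 1 and 31 counts, a ratio of 30.3 (95% counting interval 5.06 to 1236). Both genes passed the filter on low counts only through the number 2 libraries, where they are high, so their calls in this and any other fit are a description and support nothing. These were 2 calls among the 8 tested members, beside 8.97% of all tested genes called and 5.51% called higher. The call of Trem1 was lost without the genotype term and when WT1, WT2, KO1 or KO2 was left out, while its fitted log2 difference, 4.62 with all libraries and both terms, was 4.61 without the genotype term and 3.68 to 6.996 without 1 library. Such fitted values depend on the prior count. Trem3 summed to 0 and 10 counts. Set against 3 counts as the limit over both number 1 libraries, the ratio was 3.26. It takes the 10 counts as exact and carries no interval.

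The other members moved less with the number. Cd33 was higher in number 2 by a log2 difference of 0.82 (SE 0.24, adjusted p = 0.00615 in edgeR), with 1.09 in WT and 0.56 in KO, which is under the fold limit for a call. Treml4 differed by 1.37 (SE 0.56, adjusted p = 0.0819 in edgeR) and Siglecg by 0.95 (SE 0.54, adjusted p = 0.261 in edgeR). Siglec1 went the opposite way at −0.58 (SE 0.24, adjusted p = 0.0789 in edgeR), and Trem2 and Tyrobp differed by −0.28 (SE 0.24) and −0.18 (SE 0.24). Both number 2 libraries lay above both number 1 libraries for 6 of the 9 members (Trem1, Trem3, Treml4, Siglece, Cd33 and Siglecg). Without Trem3 this was 5 of the 8 tested members, beside 25.2% of all tested genes. Trem1, Siglece, Treml4 and Siglecg passed the count filter only with the help of a number 2 library. The filter itself favours this order for them, so nothing is read from the count. The sum of 10 neutrophil marker genes, set beside Trem1 and Trem3 because neutrophils carry both receptors, was 30.0 and 25.7 CPM in WT1 and WT2 and 9.22 and 12.0 CPM in KO1 and KO2. The test took in 4 of these 10 genes. Of the tested ones none was called higher in number 2, and Cxcr2 was called lower there, a gene that passed the count filter only through the number 1 libraries. Camp, a granule gene that was not tested, had 0 and 8 counts in WT1 and WT2 and 0 and 5 in KO1 and KO2, the order seen for Trem1 and Trem3, and Ltf, also not tested, had 31 and 5 in WT1 and WT2 and 9 and 8 in KO1 and KO2. Elane and Mpo were at 0 in all libraries. The part of neutrophil RNA in Trem1 and Trem3 was not tested.

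Some related receptors that were not members also differed by number, in both directions, and they are named after their values were seen. Of 12 tested genes among the other Trem, Siglec, Cd300 and Pilr genes 3 were called higher in number 2 and 1 lower, with a median log2 difference of −0.17, and of 10 tested partners of DAP12 or DAP10 2 were called higher and 0 lower, beside 8.97% of all tested genes called and 5.51% called higher. Cd300e, 1 of these 2, passed the count filter only through the number 2 libraries, so its call supports nothing. Pilra, an inhibitory receptor that binds sialylated glycoproteins, had 93 and 974 counts in WT1 and WT2 and 108 and 1132 in KO1 and KO2, a log2 difference of 3.36 (SE 0.27, adjusted p = 3.39e-34 in edgeR). The DAP12-linked genes Pilrb1 and Pilrb2 differed by 3.28 and 3.03, though their sequences are near-identical and reads could be split between them. Clec5a, a DAP12-coupled lectin, had 488 and 2341 counts in WT1 and WT2 and 593 and 2809 in KO1 and KO2, a difference of 2.23 (SE 0.24). Cd300e, a DAP12-coupled activating receptor, had 0 and 26 counts in WT1 and WT2 and 4 and 32 in KO1 and KO2. Cd300lf, an inhibitory receptor for phospholipids, was lower in number 2, with 1943 and 880 counts in WT1 and WT2 and 1812 and 608 in KO1 and KO2. Cd300a, another inhibitory receptor of that family, and Treml2 were lower in number 2 by log2 differences of −0.78 and −0.74 (adjusted p = 0.00810 and 0.0199 in edgeR), under the fold limit for a call.

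**Figure D3:**
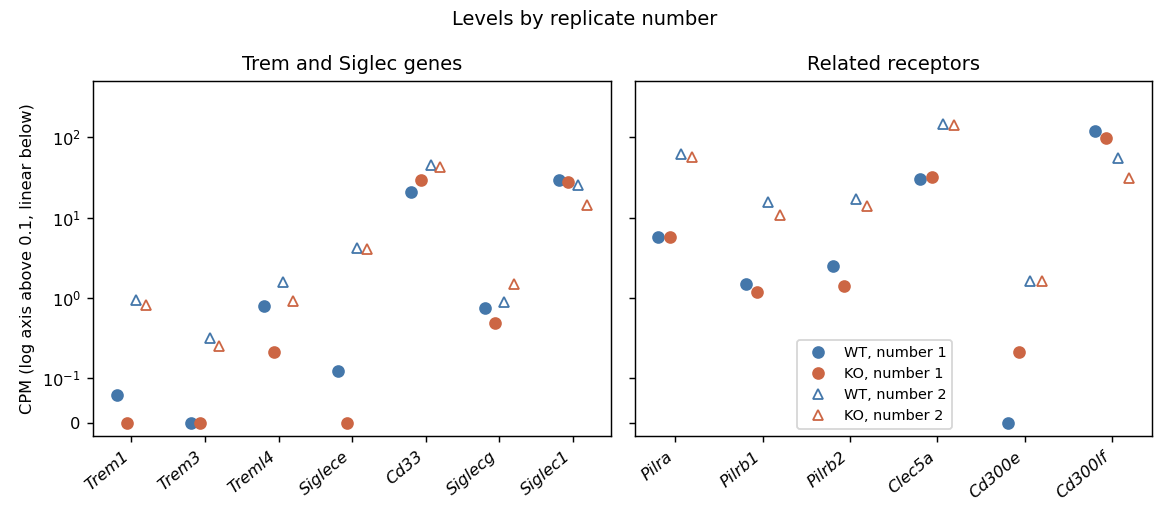
CPM of 7 members (left) and 6 related receptors (right) in each of the 4 libraries, on an axis that is logarithmic above 0.1 and linear below. WT is blue, KO is orange, number 1 libraries are filled circles and number 2 libraries open triangles. The triangles lie above the circles for each gene except Siglec1 and Cd300lf, where they lie below.

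The genes around these receptors were read from lists of known partners. Of 12 tested genes among 17 other Trem, Siglec, Cd300 and Pilr genes, 0 were called between KO and WT and 0 had an unadjusted p under 0.05. Mag (−0.54, SE 0.30) and Siglecf (−0.40, SE 0.26), both Siglecs, had the lowest p of these, and Cd300lb (0.17, SE 0.24) and Cd300ld (−0.24, SE 0.22) the highest FPKM. Cd22, a Siglec of B cells, had 1185 and 1078 counts in WT1 and WT2 and 1573 and 1277 in KO1 and KO2, a fitted KO-to-WT log2 change of 0.09 (SE 0.25). The 9 other genes of the B cell marker list summed to 45 and 49.1 CPM in WT1 and WT2 and 24.6 and 28.1 CPM in KO1 and KO2. Of the 6 tested, all 6 were below 0 and 3 had an unadjusted p under 0.05, beside 6.63% of all tested genes. Their median log2 fold change was −0.88, a direction that Cd22 did not share. The part of such cells in Cd22 and Siglecg was not tested. Treml2, the remaining Trem gene tested, had 285 and 182 counts in WT1 and WT2 and 336 and 196 in KO1 and KO2.

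Among 10 tested receptors and adaptors that pair with DAP12 or DAP10, 0 were called between genotypes. Beside 6.63% of all tested genes, 1 of the 10 had an unadjusted p under 0.05. This was Hcst, the DAP10 adaptor, with 597 and 416 counts in WT1 and WT2 and 356 and 350 in KO1 and KO2, a fitted KO-to-WT log2 change of −0.77 (SE 0.26, adjusted p = 0.640 in edgeR). Sirpb1c, which shares sequence with Sirpb1a and Sirpb1b, had −0.80 (SE 0.32), and Csf1r, the receptor for macrophage colony-stimulating factor, had −0.10 (SE 0.33).

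Of 23 ITAM signalling genes 0 were called between genotypes, 0 had an unadjusted p under 0.05, and their median log2 fold change was 0.00. Lat2, an adaptor below ITAM receptors, had −0.45 (SE 0.31) and Sos1, a Ras exchange factor, had 0.40 (SE 0.30). By replicate number 9 of the 23 were called higher in number 2 and 0 lower, against 5.51% of all tested genes called higher. Among them were the kinases Src, Lyn and Syk, the adaptor Lcp2, the lipid kinase Pik3cg and the protease Malt1. Syk, which binds the phosphorylated ITAM of DAP12, had 3988 and 13750 counts in WT1 and WT2 and 5655 and 15785 in KO1 and KO2. Malt1 had 1127 and 10459 counts in WT1 and WT2 and 1669 and 11677 in KO1 and KO2.

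From the list drawn up for the inhibitory side, 0 of 15 tested phosphatases, adaptors and receptors were called between genotypes. An unadjusted p under 0.05 was reached by 1 of them, beside 6.63% of all tested genes. Clec4a2, an ITIM lectin, had 755 and 754 counts in WT1 and WT2 and 332 and 473 in KO1 and KO2, a fitted KO-to-WT log2 change of −1.17 (SE 0.25, unadjusted p = 0.00504, adjusted p = 0.298 in edgeR). Pag1, a membrane adaptor, had 0.73 (SE 0.31). Ptpn6, which encodes SHP-1, had 2574 and 5102 counts in WT1 and WT2 and 2955 and 5111 in KO1 and KO2, with a fitted KO-to-WT log2 change of −0.20 (SE 0.44). Lilrb4a, an inhibitory receptor, and Lilr4b, a gene of similar sequence, had −0.19 (SE 0.50) and −0.25 (SE 0.50). By number 3 of the 15 were called higher in number 2 (Socs3, Lilrb4a and Lilr4b), against 5.51% of all tested genes, and 2 lower, among them Inpp5d, which encodes SHIP-1, with 871 and 410 counts in WT1 and WT2 and 1356 and 534 in KO1 and KO2.

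Among 12 tested genes for Trem ligands and shedding 0 were called between genotypes. An unadjusted p under 0.05 was seen for 2 of the 12, beside 6.63% of all tested genes. Clu, which encodes clusterin, a lipoprotein that binds Trem2, had 143 and 153 counts in WT1 and WT2 and 586 and 575 in KO1 and KO2. Both KO libraries were above both WT libraries, and the log2 fold change was 1.72 (SE 0.22, unadjusted p = 0.000481, adjusted p = 0.216 in edgeR). The summed level of 10 stromal marker genes moved with it, at 103 and 116 CPM in WT1 and WT2 and 460 and 424 in KO1 and KO2, and 7 of the 10 had an unadjusted p under 0.05. The part of stromal RNA in the difference of Clu was not tested. Bace1, a protease, had 1.22 (SE 0.47, adjusted p = 0.729 in edgeR). Apoe, an apolipoprotein ligand of Trem2, had 137025 and 85740 counts in WT1 and WT2 and 81858 and 87193 in KO1 and KO2, a fitted KO-to-WT log2 change of −0.65 (SE 0.26, adjusted p = 0.758 in edgeR), with WT1 high as it was for Trem2 and Tyrobp. Anxa5, which binds phosphatidylserine, had −0.16 (SE 0.20), and Adam10 and Adam17, proteases that cleave Trem2, had −0.10 (SE 0.24) and 0.15 (SE 0.35).

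Sialic acid genes, which make the ligands of Siglecs, gave 0 of 23 called between genotypes. They gave 1 with an unadjusted p under 0.05, beside 6.63% of all tested genes. St8sia1, the GD3 synthase, had 4 and 7 counts in WT1 and WT2 and 38 and 17 in KO1 and KO2, a fitted KO-to-WT log2 change of 2.06 (SE 0.68, adjusted p = 0.612 in edgeR). It passed the count filter only through the KO libraries, where it is high, so its p supports nothing. Npl, a lyase of sialic acid, had 0.72 (SE 0.34), and the sialyltransferases St3gal1 and St3gal4 had 0.07 (SE 0.85) and −0.33 (SE 0.30). By number 2 of the 23 were called higher in number 2 and 1 lower, shares near those of all tested genes (5.51% called higher, 8.97% in either direction). St8sia6, a sialyltransferase, was higher with 10 and 37 counts in WT1 and WT2 and 10 and 32 in KO1 and KO2. It passed the count filter only with the help of the number 2 libraries, where it is high, so its call supports nothing. St3gal1 was higher with 828 and 3751 counts in WT1 and WT2 and 1361 and 4464 in KO1 and KO2. St6gal1, which makes the linkage bound by Cd22, was called lower, with 1047 and 388 counts in WT1 and WT2 and 1708 and 632 in KO1 and KO2.

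Siglec1 is an interferon-inducible gene, so the interferon response list was read beside it. Of its 23 tested genes 22 had a log2 fold change below 0, with a median of −1.21. An unadjusted p under 0.05 was seen for 8 of the 23, all lower in KO, beside 6.63% of all tested genes in either direction. None was called in the test of genotype alone. Usp18, which restrains interferon receptor signalling, had −1.91 (SE 0.32, adjusted p = 0.250 in edgeR), Oasl1 −1.96 (SE 0.35) and Oas1a −1.09 (SE 0.22), and Isg15 had −1.48 (SE 0.68). Siglec1, at −0.38 with libraries that overlapped between genotypes, stood closer to 0 than the median of this list. By number 10 of the 23 were called higher in number 2, against 5.51% of all tested genes, and 0 lower (Mx2 among the 10 passed the count filter only through number 2), while Siglec1 had a log2 difference of −0.58.

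**Figure D4:**
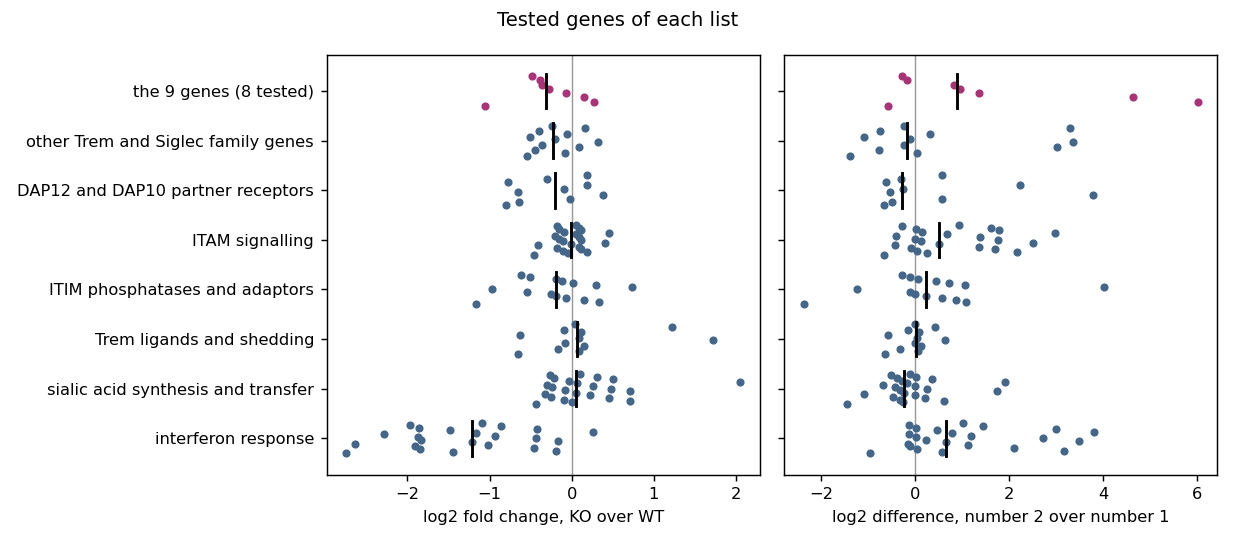
Log2 fold change of KO over WT (left) and log2 difference of number 2 over number 1 (right) for the tested genes of each list. Each point is 1 gene, spread vertically only for legibility, and the black bar is the median. The 8 tested members (top row) have a median of −0.32 on the left, and Trem1 and Siglece are the rightmost points of that row on the right.

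Likeness of profile was measured as the root mean square difference of centred log2 CPM over the 4 libraries. The nearest genes were Nsmce1, Kxd1 and Ccs for Trem2 (0.00888 to 0.0163) and Med6, Nfe2 and Aurkaip1 for Tyrobp (0.00305 to 0.0204). Within a distance of 0.1 there were 293 genes for Trem2, 269 for Tyrobp and 20 for Siglec1, so with 4 libraries many genes share such a profile.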

How the data were processed

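Total RNA of 4 macrophage samples was sequenced, and groups were taken from the genotype labels. The authors deposited a table of raw read counts and FPKM per gene for each library. The submitters' processing notes name HISAT2 2.0.4, StringTie 1.3.3b and build mm39, but gene positions in the table are those of GRCm38 and are given as deposited. Counting by strand is not stated, and 0 value columns lacked a sample. The deposited counts were tested with edgeR 4.0.16 (R 4.3.3, quasi-likelihood, TMM factors, genotype as the only term). The filter was filterByExpr (minimum count 10, minimum total 15), and CPM used TMM-scaled library sizes. A gene was called at a Benjamini-Hochberg adjusted p under 0.05 with a log2 fold change beyond 1 either way. Ratios within a number used a prior count of 0.5. Alternatives were DESeq2 1.42.0, limma 3.58.1 on log2(FPKM + 1), other filters and size factors, a replicate term, a gene length correction and leaving out each library. Named genes were the 9 members and G3bp1, the 2 tested genes of each list with the lowest p and the 2 with the highest mean FPKM, any called gene, and the 3 genes nearest to Trem2, Tyrobp and Siglec1. Some results under this rule, those nearest to Siglec1 among them, are not reported here. Any other gene was picked with its values in view. Members and lists were chosen with earlier results of these data known.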

Additional observations from a re-analysis of the deposited data

How the results depend on the processing

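No member was called between genotypes under any alternative run. The count of all genes called was 0 and went to 664 with the replicate block, 181 with the DESeq2 Wald test, 174 with the edgeR exact test, 367 with the replicate block and gene length correction together, and 0 to 1 when 1 library was left out. At an unadjusted p under 0.05 the quasi-likelihood test had 823 genes. The labels share replicate numbers but do not say that a number marks a pairing, and deviations of same-numbered libraries correlated with r = 0.710. With this pairing as a block the called members stayed at 0, with adjusted p from 0.245 (Treml4) to 0.900 (Siglecg). At an unadjusted p under 0.05, adding the gene length correction gave 2 of 8 members, among 2205 of 12418 genes. This block alone gave 1 of 8 members, among 2276 genes. Other genes were called with this block, among them 15 of the 23 interferon response genes (all lower in KO, Usp18 at adjusted p = 9.04e-09 in edgeR), Clec4a2 (4.96e-05, lower), and Clu (5.97e-10) and Bace1 (0.0333), both higher. Gene length correction turned Tyrobp to 0.029 and Cd33 to −0.038, and with the block it turned them to 0.039 and −0.00068 and Siglecg to −0.012. Leaving out 1 library gave log2 fold changes of −0.29 to 0.77 for Cd33, −0.94 to 0.017 for Siglec1, −8.20 to 3.96 for Siglece, −0.74 to 0.86 for Siglecg and −6.11 to 2.58 for Trem1. Trem2 (−0.66 to −0.02), Tyrobp (−0.81 to −0.11) and Treml4 (−2.43 to −0.37) kept their sign. Between the numbers the members called went from 2 to 1 without the genotype term, and to 1 to 2 when 1 library was left out. The 2 members without KO1 were Siglece and Cd33 (log2 difference 1.08, adjusted p = 0.0200 in edgeR). Siglece and Trem1 passed the count filter only through the number 2 libraries, so their calls say nothing of stability. Siglece had log2 differences of 5.00 to 9.24 when 1 library was left out, with adjusted p from 1.87e-19 to 0.0299 over all settings. Trem1 had a log2 difference of 4.61 without the genotype term (adjusted p = 0.0937 in edgeR) and 3.68 to 6.996 without 1 library (adjusted p = 0.0952 to 0.221 in edgeR). All genes called went from 1114 to 404 and to 382 to 860. The difference of Trem2 ran from −0.61 to 0.040, that of Tyrobp from −0.64 to 0.29, that of Siglec1 from −1.02 to −0.16, that of Treml4 from 0.62 to 2.49, that of Siglecg from 0.53 to 1.28 and that of Cd33 from 0.58 to 1.08. The causes were not tested. With 2 libraries a genotype, and at most 2 counts of Trem1, Trem3 and Siglece in a number 1 library, depth limits what can be seen in these 3 genes.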
